A study of Nannochloropsis oceanica with 6 samples.

Results

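Transcript levels after a short pulse of blue light were compared with those in continued darkness in Nannochloropsis oceanica CCMP1779, a unicellular marine alga of the stramenopile lineage. The comparison covered 9087 gene models whose FPKM (fragments per kilobase of transcript, scaled to the size of the library) averaged 1 or more across all 6 libraries, out of 10641 models listed, of which 10635 had values. No measured difference between blue and dark entered the choice of these models. Blue cultures received 5 min of blue light at 20 µmol s−1 m−2 and then stood in darkness for 15 min. Dark cultures received no pulse and were harvested at the same time. Both had been raised at 22 °C under 30 µmol s−1 m−2, with 12 h of light and 12 h of darkness per day, were moved to darkness at zeitgeber time 12 h, and stayed there for 36 h. Each group held 2 libraries of polyadenylated RNA. A further group of 2 libraries, pulsed with red light at the same intensity, entered the fit to estimate the spread and gave the direct test of blue against red.

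Stramenopile algae sense blue light through aureochromes, which join a DNA-binding bZIP domain to a flavin-binding LOV domain, and through cryptochromes. Nannochloropsis is known for its high content of storage lipid and of eicosapentaenoic acid, a long-chain polyunsaturated fatty acid, and carries chlorophyll a with violaxanthin as a main carotenoid. A cell that starts to grow needs ribosomes, nucleotides, amino acids and reduced nitrogen and sulphur, while a starved cell draws on stored lipid and on amino acid breakdown. The deposited descriptions were read by pathway, from the machinery of protein synthesis to metabolism, transport and protein folding.

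The FPKM columns summed to 624861 and 662229 in blue and to 767193 and 767747 in dark libraries, and to 588092 and 615972 in red libraries. Between 8934 and 9069 models reached 1 FPKM in a library. The 10 most abundant models held 3.95% and 3.90% of the summed FPKM in blue libraries and 6.15% and 6.11% in dark libraries. The median absolute log2 difference between replicates was 0.143 in blue and 0.072 in dark, against 0.618 to 0.628 between a blue and a dark library. Whether replicates came from separate cultures is not stated in the labels, and the p-values reflect the spread of these libraries alone. The table used here holds no counts, and the depth behind each value is unknown. Chlorophyll-binding proteins of the light-harvesting family and aureochromes were measured in every library, as is usual for this lineage. FPKM is a share of the RNA in a bulk sample, so more of 1 transcript per cell, more cells that make it and less of other transcripts cannot be told apart.

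Most of the transcriptome differed between blue and dark libraries. With limma on log2(FPKM + 1) and an adjusted p under 0.05, 6918 of 9087 models were called (76.1%), 3626 of them higher in blue (39.9%) and 3292 lower (36.2%). In 8006 models (88.1%) the values of both groups did not overlap. The split between rises and falls depended on how the libraries were scaled: 52.4% of the calls were rises with FPKM, 64.8% with TPM, 46.6% after quantile normalization and 38.1% after median centring. The median log2 change of the same 9087 models was 0.05 with FPKM and 0.28 with TPM, and it was −0.06 after quantile normalization and −0.22 after median centring. A call is termed robust here when it kept its direction under all 4 scalings, a rule set after seeing the data. Of all models, 2624 were robust rises (28.9%) and 2422 robust falls (26.7%). The counts of each group below are to be read against these shares and against the 39.9% of models that rose and 36.2% that fell.

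**Figure D1:**
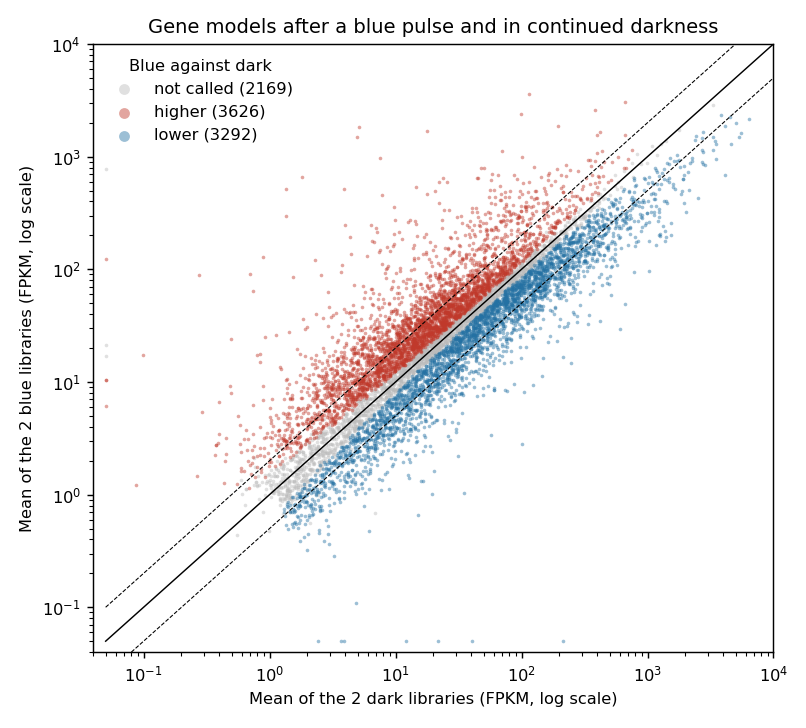
Mean FPKM of the 2 blue libraries (vertical axis) against the mean of the 2 dark libraries (horizontal axis), both on log scales, 1 point per gene model. Means below 0.05 are drawn at 0.05, the solid line marks equal levels and the dashed lines a change of 2-fold. The 3626 models called higher in blue lie above the solid line and the 3292 models called lower lie under it.

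Changes of at least 2-fold that passed the test were made by 1439 models that rose (15.8%) and 1149 that fell (12.6%). At 4-fold the numbers were 345 (3.8%) and 145 (1.6%), and at 8-fold 120 (1.32%) and 29 (0.319%). Overlapping models share part of their span with another model, and the strand setting of the authors' counting is not known from the sources used, so their reads could be split or mixed. They are marked as overlapping. Among the 5654 models without overlap, 2297 rose (40.6%) and 2011 fell (35.6%). Every model named below as risen or fallen had both blue libraries outside the range of the dark libraries.

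Among described models that overlapped no other model and reached 10 FPKM in the higher group, the 20 largest rises had log2 changes between 4.27 and 8.23. The largest was that of a T-complex 11 domain protein (667321), with 1799.8 and 1866 FPKM in blue libraries, against 4.76 and 5.43 FPKM in dark libraries (log2 change 8.23, SE 0.10, adjusted p = 1.75e-10). Aureochrome 4 (622551), of the receptor family named above, had 1298 and 1669 FPKM in blue libraries, against 4.81 and 5.13 FPKM in dark libraries (log2 change 7.95). An elongation factor type GTP-binding protein (572801) had 970.3 and 981 FPKM in blue libraries, against 7.96 and 7.22 FPKM in dark libraries (log2 change 6.83). The blue means exceeded the dark means 359.8-fold, 298-fold and 129-fold in these 3 models. Aureochrome models 550823 and 582424 (overlapping) instead fell robustly, so the rise of aureochrome 4 was not shared by its family. Model 550823 had 270 and 264 FPKM in blue libraries, against 811 and 763 FPKM in dark libraries (log2 change −1.555). Overlapping model 582424 had 424 and 446 FPKM in blue libraries, against 778 and 725 FPKM in dark libraries (log2 change −0.787). A fatty acid desaturase (639463), of the enzymes that place double bonds in acyl chains, had 479 and 559 FPKM in blue libraries, against 3.97 and 3.89 FPKM in dark libraries (log2 change 6.72). A mitochondrial carrier (588372) had 76.9 and 104 FPKM in blue libraries, against 0.841 and 0.557 FPKM in dark libraries (log2 change 5.74). A zuotin-related SANT/Myb domain protein (243818) had 2562 and 2263 FPKM in blue libraries, against 97.4 and 98.9 FPKM in dark libraries (log2 change 4.60), so it was well expressed in darkness too.

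Further down the same 20, a protein with an RlpA-like double-psi beta-barrel domain (610099), a fold of secreted cell wall proteins in bacteria and plants, had 394 and 515 FPKM in blue libraries, against 8.10 and 7.41 FPKM in dark libraries (log2 change 5.69, SE 0.13, adjusted p = 3.20e-09). A methyltransferase with a DOT1 histone methylation domain (588397) had 165 and 226 FPKM in blue libraries, against 4.89 and 3.85 FPKM in dark libraries (log2 change 5.18). The pentafunctional AROM protein (106091), which carries the central steps of the shikimate pathway towards aromatic amino acids, had 341 and 374 FPKM in blue libraries, against 9.56 and 10.0 FPKM in dark libraries (log2 change 5.05). All 3 were scarce in darkness and abundant after the pulse. An FKBP-type peptidyl-prolyl isomerase (605570), a protein-folding enzyme, had 126 and 148 FPKM in blue libraries, against 4.36 and 4.54 FPKM in dark libraries. A pentatricopeptide repeat protein (602889), of a family that binds organellar RNA, had 94.3 and 122 FPKM in blue libraries, against 3.74 and 3.77 FPKM in dark libraries. A pair of models annotated as front-end type fatty acid desaturases, with neighbouring identifiers, had near-equal levels. Model 593992 had 581 and 701 FPKM in blue libraries, against 24.2 and 23.2 FPKM in dark libraries. Model 593993, described by its cytochrome b5 domain, had 575 and 614 FPKM in blue libraries, against 21.9 and 22.5 FPKM in dark libraries. The others of the 20 are given with their pathways. Overlapping models stood outside this ranking, with rises as large in desaturases 591536 (overlapping) (log2 change 7.85) and 606752 (overlapping) (6.98), in a Kua-ubiquitin conjugating enzyme hybrid (577358, overlapping) (6.11) and in cryptochrome DASH (622582, overlapping) (6.09), a flavoprotein of the photolyase family.

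Under the same terms the 20 largest falls had log2 changes between −4.30 and −2.74. An aromatic amino acid hydroxylase of the biopterin-dependent family (585185), which includes phenylalanine hydroxylase, fell most, with 29.9 and 29.4 FPKM in blue libraries, against 632 and 578 FPKM in dark libraries (log2 change −4.30, SE 0.08, adjusted p = 1.42e-09). A 6-phosphogluconate dehydrogenase domain protein (585179) had 43.2 and 54.2 FPKM in blue libraries, against 668 and 661 FPKM in dark libraries (log2 change −3.75). A second zuotin-related SANT/Myb domain protein (523144) had 6.94 and 11.8 FPKM in blue libraries, against 127 and 121 FPKM in dark libraries (log2 change −3.63), the reverse direction of the one above. A model described by its likeness to an ATP synthase nuclear control factor (603379) had 10.8 and 11.8 FPKM in blue libraries, against 152 and 140.2 FPKM in dark libraries (log2 change −3.58). A TPR repeat protein (609277), of a repeat that binds other proteins, had 30.4 and 39.6 FPKM in blue libraries, against 428 and 418 FPKM in dark libraries (log2 change −3.57). Each of these 5 was far lower in both blue libraries than in either dark library.

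Next in size were falls of enzymes and of proteins with less specific descriptions. A glycoside hydrolase of family 47 (645801), a family of alpha-mannosidases that trim glycoproteins, had 0.521 and 0.810 FPKM in blue libraries, against 15.3 and 14.8 FPKM in dark libraries (log2 change −3.28, SE 0.14, adjusted p = 6.66e-08). An NADH-dependent fumarate reductase (588713), an enzyme that passes electrons from NADH to fumarate, had 26.3 and 22.99 FPKM in blue libraries, against 249 and 242 FPKM in dark libraries (log2 change −3.27). A condensin subunit (555972), part of the complex that compacts chromosomes in mitosis, had 9.26 and 7.51 FPKM in blue libraries, against 77.4 and 76.1 FPKM in dark libraries (log2 change −3.06). The dark means exceeded the blue means 22.7-fold, 9.97-fold and 9.15-fold in these 3 models. A sirtuin (603513), an NAD-dependent protein deacetylase, had 28.7 and 33.2 FPKM in blue libraries, against 221 and 211 FPKM in dark libraries. A protein with a Bax inhibitor domain (599273) had 66.9 and 80.7 FPKM in blue libraries, against 509 and 484 FPKM in dark libraries. A short-chain dehydrogenase/reductase (591729) had 7.37 and 9.46 FPKM in blue libraries, against 72.6 and 76.0 FPKM in dark libraries. A DUF775 protein (598979), of unknown function, had 19.3 and 26.6 FPKM in blue libraries, against 189 and 191 FPKM in dark libraries. Except for the glycoside hydrolase, which lay below 1 FPKM in both blue libraries, all of these enzymes and domain proteins kept a measurable level in blue. An armadillo repeat protein (668864) had 36.9 and 40.2 FPKM in blue libraries, against 274 and 274 FPKM in dark libraries. An actin family model (580844) had 1.23 and 1.44 FPKM in blue libraries, against 16.9 and 16.2 FPKM in dark libraries. A WW domain protein (604308) had 1.46 and 1.78 FPKM in blue libraries, against 23.7 and 16.5 FPKM in dark libraries, the dark libraries differing from each other more than the blue ones. Larger falls of overlapping models were listed for a Ysc84 actin-binding domain protein (573276, overlapping), with values close to 0 in both blue libraries, against 38.4 and 41.9 FPKM in dark libraries, for a C2 domain predicted lipase (588568, overlapping) (log2 change −4.24) and for an rRNA-processing Utp23-like protein (130052, overlapping) (log2 change −4.15).

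By absolute amount, large losses came from models that had been abundant in darkness. A long-chain acyl-CoA ligase (603105), which activates free fatty acids, had 704 and 657 FPKM in blue libraries, against 4078 and 4125 FPKM in dark libraries. A model of the uncharacterised family UPF0662 (668760) had 1693 and 1560.5 FPKM in blue libraries, against 5623 and 5404 FPKM in dark libraries. An Mpv17/PMP22 protein (578851), of a peroxisomal and mitochondrial membrane family, had 1252 and 1501 FPKM in blue libraries, against 3470 and 3341 FPKM in dark libraries. All 3 were still abundant after the pulse. A MAPEG family membrane protein (579235) had 359 and 423 FPKM in blue libraries, against 1939.7 and 1968 FPKM in dark libraries (log2 change −2.32). Among the gains, a second Mpv17/PMP22 family model 574867 had 375 and 398 FPKM in blue libraries, against 22.5 and 21.4 FPKM in dark libraries (log2 change 4.08), the reverse direction of the abundant one.

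Sorted by KOG class, an annotation scheme of eukaryotic protein function, translation had the largest share of robust rises among the classes shown in the plot by class. Of its 314 models, 64.6% were robust rises and 8.60% robust falls, against 28.9% and 26.7% of all models. Its models held 6.23% and 6.78% of the summed FPKM in blue libraries, against 2.64% and 2.74% in dark libraries. Nucleotide metabolism (41.6% robust rises and 14.3% robust falls of 77 models), RNA processing (40.6% and 17.5% of 286), coenzymes (38.0% and 17.7% of 79) and transcription (36.0% and 18.8% of 197) also held more rises than falls. The median log2 change stayed above 0 under all 4 scalings for translation, nucleotide metabolism, RNA processing and transcription, and turned slightly negative with median centring for coenzymes.

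Cytoskeletal proteins had the smallest share of robust rises. Of 61 models, 9.84% were robust rises and 39.3% robust falls, with a median log2 change of −0.39 that stayed negative under all 4 scalings (−0.16 with TPM). Replication and repair (19.0% robust rises and 35.6% robust falls of 163 models), signal transduction (20.2% and 34.0% of 282) and protein modification with chaperones (22.7% and 33.7% of 564) held more robust falls than rises. The medians of these 3 classes were −0.14, −0.17 and −0.19 with FPKM and 0.10, 0.07 and 0.05 with TPM, so their direction as classes rested on the scaling. The 4229 models without a KOG class lay near the background, with 1098 robust rises and 1152 robust falls.

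**Figure D2:**
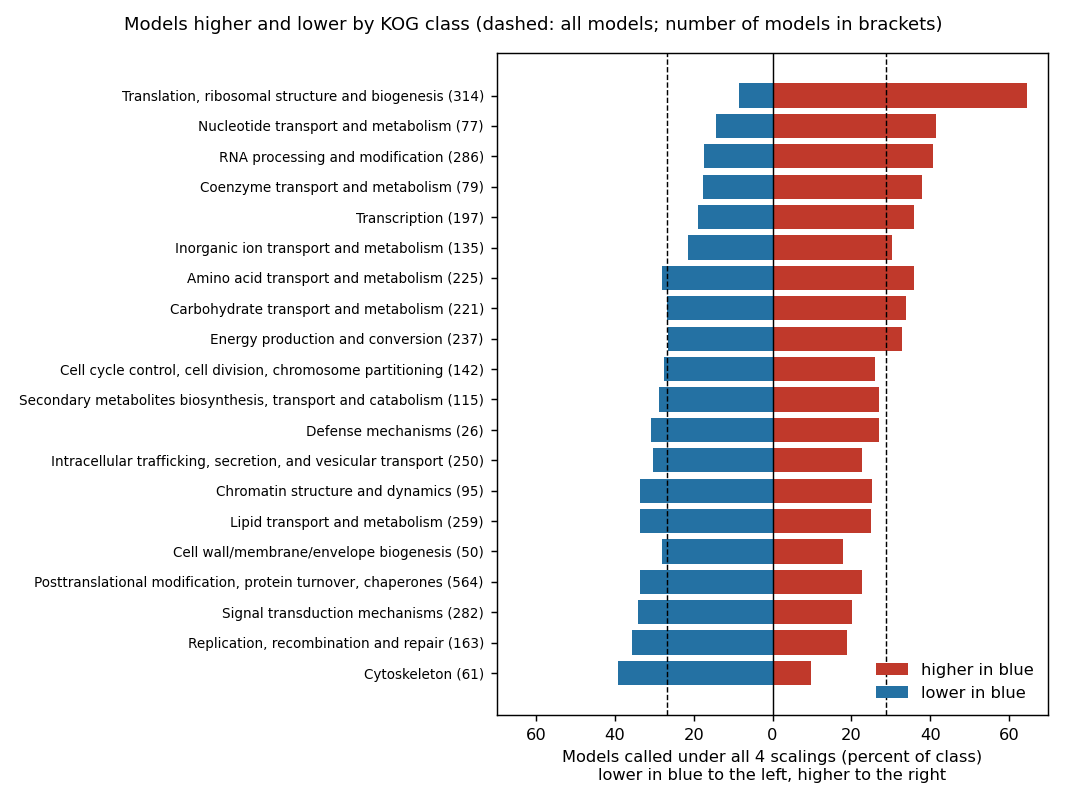
Share of the models of each KOG class that were robust rises (red bars, to the right) and robust falls (blue bars, to the left) in percent of the class, with the number of tested models in brackets and the background of all 9087 models as dashed lines. Translation reaches 64.6% robust rises, and the cytoskeleton has the lowest share of rises, at 9.84%.

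Ribosomes are built in the nucleolus from rRNA and proteins made in the cytosol, and plastids and mitochondria hold ribosomes of their own. Cytosolic ribosomal proteins rose together: 73 of 75 models rose and 0 fell, with 70 robust rises and a median log2 change of 1.92. They held 3.49% and 3.98% of the summed FPKM in blue libraries, against 0.912% and 0.984% in dark libraries. Ribosomal protein L13 (667914) had 452 and 551 FPKM in blue libraries, against 52.9 and 58.9 FPKM in dark libraries (log2 change 3.14, SE 0.12, adjusted p = 4.42e-08). Small-subunit protein S7e (609134) had 416 and 460.4 FPKM in blue libraries, against 58.4 and 65.3 FPKM in dark libraries (log2 change 2.81). The rise reached proteins that were abundant beforehand, such as the L10e/L16 protein (615607) with 789 and 995 FPKM in blue libraries, against 419 and 480.3 FPKM in dark libraries. Among the smallest changes of the group, the L34Ae protein (611953) had 231 and 252 FPKM in blue and 220.1 and 224 FPKM in dark libraries and did not pass the test. A fusion of ubiquitin and ribosomal protein L40 (597252) had 181 and 196 FPKM in blue libraries, against 31.9 and 29.9 FPKM in dark libraries (log2 change 2.57).

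Organellar ribosomal proteins were mixed. Of 44 models 21 rose and 12 fell, 18 and 10 of them robustly, with a median of 0.27. Large-subunit protein L28 of the bacterial type (575479) had 322 and 380.1 FPKM in blue libraries, against 70.4 and 73.6 FPKM in dark libraries. Plastid protein S1 (613595, overlapping) had 483 and 450.3 FPKM in blue libraries, against 100.4 and 101 FPKM in dark libraries. In the other direction, a plastid protein of the S30Ae family (594854), related to factors that hold ribosomes inactive in bacteria, had 291 and 309 FPKM in blue libraries, against 587 and 616 FPKM in dark libraries (log2 change −1.003). A mitochondrial L21-like protein (584873, overlapping) had 68.9 and 85.0 FPKM in blue libraries, against 214 and 217 FPKM in dark libraries (log2 change −1.48).

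The RNA polymerases differed by class. RNA polymerase I transcribes the large rRNA precursor, polymerase III transfer RNAs and 5S rRNA, and polymerase II messenger RNAs. Of 10 models of polymerase I and its factors 8 rose and 0 fell, and the rise of model 533871 was not robust. The largest subunit (628222) had 16.04 and 16.5 FPKM in blue libraries, against 4.27 and 3.77 FPKM in dark libraries (log2 change 1.78, SE 0.14, adjusted p = 2.74e-06) and the next largest subunit (530132) had 21.7 and 28.5 FPKM in blue libraries, against 6.97 and 6.52 FPKM in dark libraries (log2 change 1.74). Both RRN3 initiation factors rose by less. Model 528700 had 9.06 and 10.39 FPKM in blue libraries, against 4.58 and 5.84 FPKM in dark libraries. Model 630719 had 9.38 and 8.79 FPKM in blue libraries, against 4.32 and 5.99 FPKM in dark libraries. Of 12 models of polymerase III and its factors 9 rose and 2 fell. The falls were those of a TFIIIC factor (526880) and of the repressor Maf1, not of polymerase subunits. Several of the rises, such as those of 340733 and 581674 (overlapping), were not robust. The largest subunit of polymerase III (599306) had 7.496 and 8.998 FPKM in blue libraries, against 2.68 and 2.99 FPKM in dark libraries. Maf1 (306082, overlapping), a repressor of polymerase III in yeast and human, had 252 and 270.3 FPKM in blue libraries, against 391 and 383 FPKM in dark libraries (log2 change −0.57). Of 7 polymerase II models 0 rose and 3 fell. Its largest subunit (571679) had 117 and 119.6 FPKM in blue libraries, against 197 and 198 FPKM in dark libraries (log2 change −0.73, SE 0.08, adjusted p = 1.98e-05). The 135 kDa subunit (537101) had 139 and 127 FPKM in blue libraries, against 269 and 252 FPKM in dark libraries (log2 change −0.97). In FPKM, both polymerase II subunits lay above the named subunits of polymerases I and III in every blue and dark library.

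Factors of ribosome assembly rose widely. 63 of 79 models rose and 8 fell, 54 and 3 of them robustly, and the median of 0.85 stayed positive under all 4 scalings (0.59 with median centring). Without blue replicate 1 or without dark replicate 2 the number of falls was 5. Fibrillarin (573542), which methylates rRNA, had 84.2 and 102 FPKM in blue libraries, against 16.3 and 18.4 FPKM in dark libraries (log2 change 2.35). A Sas10/Utp3 protein (574712) of the small-subunit processome had 19.1 and 21.0 FPKM in blue libraries, against 2.77 and 2.51 FPKM in dark libraries (log2 change 2.53). Nucleolar Nop16 (572000) went the other way, with 34.9 and 45.4 FPKM in blue libraries, against 59.7 and 60.3 FPKM in dark libraries (log2 change −0.58).

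Enzymes that load transfer RNAs and the factors of translation rose more often than they fell. Of 46 aminoacyl-tRNA synthetase models 32 rose and 5 fell (median 0.71, positive under all 4 scalings). Leucyl-tRNA synthetase (525612) had 15.9 and 19.0 FPKM in blue libraries, against 2.27 and 2.43 FPKM in dark libraries. Phenylalanyl-tRNA synthetase (538269) had 90.6 and 93.2 FPKM in blue libraries, against 21.5 and 19.5 FPKM in dark libraries. Alanyl-tRNA synthetase (582534) was lower, with 78.6 and 74.5 FPKM in blue libraries, against 216 and 207 FPKM in dark libraries (log2 change −1.45, SE 0.08, adjusted p = 4.93e-07). Of 122 models matched as translation factors 77 rose and 17 fell. The list also takes in ABC proteins of the type that acts on ribosomes. A GTP-binding elongation factor of the mitochondrial type (539505) had 795 and 779.7 FPKM in blue libraries, against 47.2 and 48.8 FPKM in dark libraries (log2 change 4.01). Elongation factor Ts (614686), the exchange factor of organellar elongation factor Tu, had 87.3 and 98.7 FPKM in blue libraries, against 9.46 and 10.9 FPKM in dark libraries (log2 change 3.08). Against these, a GTPase annotated as the selenocysteine-specific elongation factor (636004) had 377 and 399.6 FPKM in blue libraries, against 1422 and 1456 FPKM in dark libraries (log2 change −1.89). A protein with the MA3 domain of eIF4G (594292) had 108 and 107 FPKM in blue libraries, against 458 and 478 FPKM in dark libraries (log2 change −2.11). The KOG line of 594292 names the transformation suppressor Pdcd4/MA-3, in the class of signal transduction, so it need not be a translation factor.

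**Figure D3:**
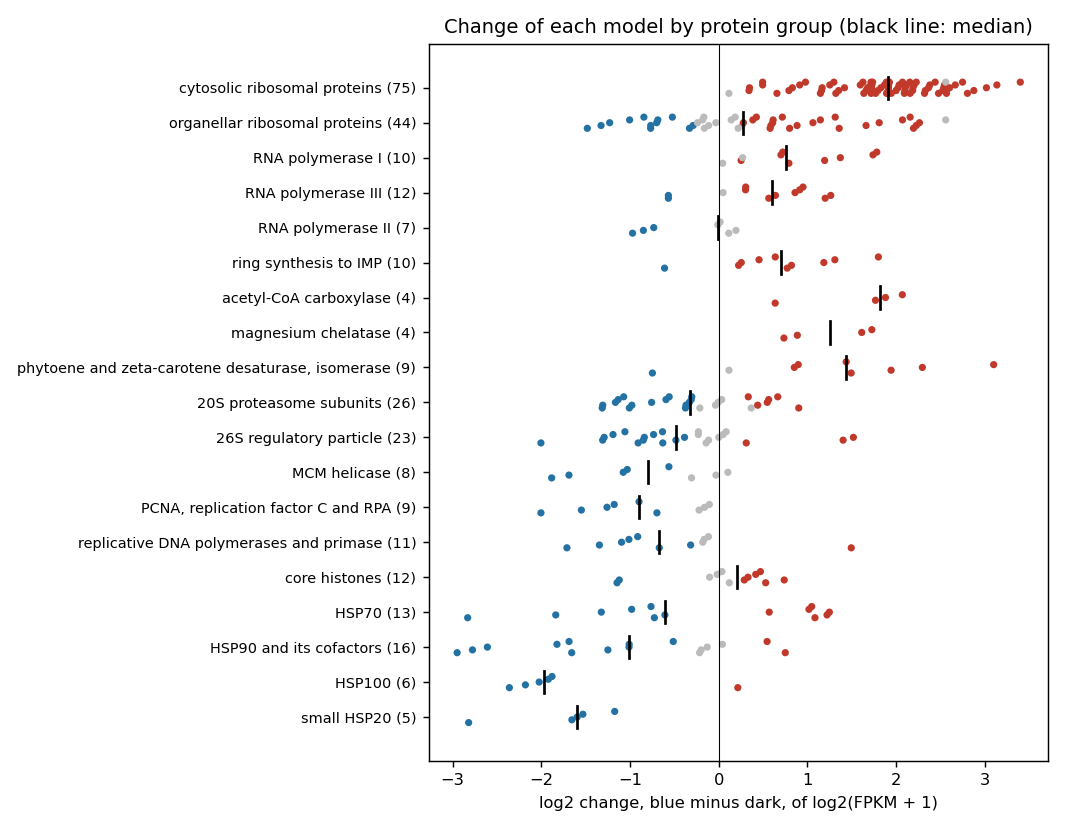
Log2 change, blue minus dark, of log2(FPKM + 1) for each model of 19 protein groups, with called rises in red, called falls in blue, models that did not pass in grey and the median as a black line. Cytosolic ribosomal proteins, polymerases I and III and the steps of purine, fatty acid and pigment synthesis lie mostly to the right of 0, while proteasome subunits, replication proteins and heat shock proteins lie mostly to the left.

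Purine nucleotides are built on ribose phosphate in a chain that ends in inosine monophosphate (IMP), from which AMP and GMP branch. In the PRPP and ring steps together 13 of 14 models rose and 1 fell, 8 and 1 of them robustly. The amidophosphoribosyltransferase that commits the pathway (535750, overlapping) had 30.6 and 27.8 FPKM in blue libraries, against 4.43 and 4.91 FPKM in dark libraries (log2 change 2.41, SE 0.10, adjusted p = 8.79e-08). The cyclo-ligase (530936) had 22.8 and 24.96 FPKM in blue libraries, against 6.07 and 6.201 FPKM in dark libraries. The closing bifunctional enzyme (330258) had 23.6 and 24.4 FPKM in blue libraries, against 9.29 and 8.84 FPKM in dark libraries. The carboxylase (573741) had 30.6 and 30.9 FPKM in blue libraries, against 13.0 and 12.9 FPKM in dark libraries. The exception was SAICAR synthase (594448), with 25.2 and 26.1 FPKM in blue libraries, against 40.5 and 38.8 FPKM in dark libraries (log2 change −0.61). At the branch to AMP, adenylosuccinate lyase (580582) had 45.5 and 46.2 FPKM in blue libraries, against 20.2 and 21.5 FPKM in dark libraries.

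Enzymes of pyrimidines and deoxynucleotides moved in both directions. CTP synthase (639086) had 8.88 and 9.83 FPKM in blue libraries, against 2.88 and 2.89 FPKM in dark libraries (log2 change 1.41). Dihydroorotate dehydrogenase (624072) had 26.03 and 25.8 FPKM in blue libraries, against 16.8 and 16.5 FPKM in dark libraries. The bifunctional enzyme that completes UMP (333686) had 41.1 and 42.6 FPKM in blue and 37.5 and 37.5 FPKM in dark libraries and did not pass the test. For ribonucleotide reductase, which makes deoxynucleotides, a large subunit (600161) had 22.2 and 24.0 FPKM in blue libraries, against 9.84 and 9.96 FPKM in dark libraries. The small subunit (597904) had 16.4 and 20.5 FPKM in blue libraries, against 10.5 and 9.29 FPKM in dark libraries. Another large subunit (589232) had 3.90 and 4.73 FPKM in blue libraries, against 19.8 and 19.2 FPKM in dark libraries (log2 change −1.95). The models of this enzyme thus moved in opposite directions. dUTPase (601336), which keeps uracil out of DNA, had 3.11 and 3.09 FPKM in blue libraries, against 7.92 and 7.64 FPKM in dark libraries (log2 change −1.10).

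In carbon metabolism, the Calvin cycle and glycolysis held more rises than falls. The Calvin cycle fixes CO2 in the plastid, and glycolysis breaks hexose down to pyruvate, both by way of triose phosphates. Of 22 Calvin cycle models 12 rose and 8 fell (median 0.46, positive under all 4 scalings), and they held 0.749% and 0.756% of the summed FPKM in blue libraries, against 0.405% and 0.415% in dark libraries. Phosphoribulokinase (604976), which makes the acceptor of CO2, had 211 and 234 FPKM in blue libraries, against 54.6 and 58.9 FPKM in dark libraries (log2 change 1.95, SE 0.09, adjusted p = 1.19e-07). Ribulose-phosphate epimerase (591692) had 219 and 241 FPKM in blue libraries, against 49.8 and 55.6 FPKM in dark libraries. Sedoheptulose-bisphosphatase (671242, overlapping) had 760.0 and 844 FPKM in blue libraries, against 124 and 129 FPKM in dark libraries. Transketolase (582569, overlapping) had 1599 and 1729.9 FPKM in blue libraries, against 411 and 428 FPKM in dark libraries. These enzymes of the regenerative arm rose between 3.97-fold and 6.35-fold in the mean. Transaldolase (635831), which serves the oxidative pentose phosphate pathway in most cells, fell, with 235 and 249 FPKM in blue libraries, against 463 and 441 FPKM in dark libraries (log2 change −0.90).

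Of 39 models of glycolysis and gluconeogenesis 26 rose and 10 fell, with a median of 0.81 that stayed positive under all 4 scalings, and they held 1.40% and 1.41% of the summed FPKM in blue libraries, against 0.557% and 0.562% in dark libraries. An NADP-dependent glyceraldehyde-3-phosphate dehydrogenase of the aldehyde dehydrogenase family (577556) had 3064 and 3104 FPKM in blue libraries, against 657 and 681 FPKM in dark libraries, the largest gain in mean FPKM among non-overlapping models (log2 change 2.20). A model that joins triosephosphate isomerase to a glyceraldehyde-3-phosphate dehydrogenase (623181, overlapping), as found in mitochondria of stramenopiles, had 261 and 291 FPKM in blue libraries, against 10.3 and 9.66 FPKM in dark libraries (log2 change 4.66). A second fusion model 603577 (overlapping) had 207 and 216 FPKM in blue libraries, against 264 and 252 FPKM in dark libraries, a call that was not robust. Triosephosphate isomerase (587248) had 219.5 and 247 FPKM in blue libraries, against 21.5 and 25.3 FPKM in dark libraries. The enolases, which make phosphoenolpyruvate, both rose: model 572428 had 783 and 895 FPKM in blue libraries, against 224 and 226 FPKM in dark libraries. Overlapping model 578567 had 72.3 and 79.3 FPKM in blue libraries, against 11.9 and 12.3 FPKM in dark libraries. The earliest enzymes differed among themselves. Glucose-6-phosphate isomerase (667894, overlapping) had 182 and 201 FPKM in blue libraries, against 38.2 and 39.9 FPKM in dark libraries, whereas glucokinase (576873, overlapping) had 28.7 and 30.9 FPKM in blue libraries, against 53.4 and 57.3 FPKM in dark libraries (log2 change −0.87). Pyrophosphate-dependent phosphofructokinase (623743) had 120.3 and 126 FPKM in blue libraries, against 90.7 and 94.4 FPKM in dark libraries, a call that was not robust.

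Pyruvate dehydrogenase, which turns pyruvate into acetyl-CoA in plastids and mitochondria, was described by models that moved in both directions. Of 18 models of the complex, its kinases and phosphatases, 11 rose and 4 fell. An E1 component (585644) had 224 and 248 FPKM in blue libraries, against 37.6 and 38.8 FPKM in dark libraries (log2 change 2.59, SE 0.09, adjusted p = 2.49e-08). A dihydrolipoamide dehydrogenase (582735) had 235 and 276 FPKM in blue libraries, against 47.6 and 51.7 FPKM in dark libraries. An acyltransferase (604552) had 227 and 253 FPKM in blue libraries, against 59.6 and 63.4 FPKM in dark libraries. A transacylase annotated as the E2 subunit of an alpha-keto acid dehydrogenase (418247), which may belong to another complex of this kind, had 145 and 131 FPKM in blue libraries, against 561 and 541 FPKM in dark libraries (log2 change −1.99, SE 0.08, adjusted p = 7.20e-08). A dihydrolipoamide dehydrogenase (600421, overlapping) had 132 and 133 FPKM in blue libraries, against 459.7 and 445 FPKM in dark libraries. A mitochondrial pyruvate dehydrogenase kinase (572138), which switches the mitochondrial complex off in other eukaryotes, had 66.2 and 68.7 FPKM in blue libraries, against 265 and 268 FPKM in dark libraries (log2 change −1.97). The compartment of these subunits is not given in the descriptions. ATP-citrate lyase (537141), which releases acetyl-CoA from citrate in the cytosol, had 49.7 and 47.5 FPKM in blue libraries, against 6.88 and 6.36 FPKM in dark libraries (log2 change 2.70).

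Citrate and glyoxylate cycle enzymes fell in most of the models named here. Mitochondrial aconitase (550334) had 366 and 376 FPKM in blue libraries, against 843 and 776 FPKM in dark libraries (log2 change −1.12, SE 0.11, adjusted p = 1.22e-05). Both citrate synthases fell. Overlapping model 588676 had 33.4 and 34.3 FPKM in blue libraries, against 52.0 and 53.6 FPKM in dark libraries. Model 599276 had 11.4 and 11.8 FPKM in blue libraries, against 19.3 and 22.0 FPKM in dark libraries. In the span of succinate to malate 4 of 12 models rose and 7 fell. The cytochrome b subunit of succinate dehydrogenase (600093) had 115 and 139 FPKM in blue libraries, against 273 and 303 FPKM in dark libraries. The flavoprotein subunit of the same enzyme (576315) had 170.4 and 175 FPKM in blue libraries, against 121 and 114 FPKM in dark libraries. The subunits of 1 complex therefore differed in direction. Isocitrate lyase (597162, overlapping), the entry enzyme of the glyoxylate cycle that lets cells grow on fatty acids, had 147 and 154 FPKM in blue libraries, against 549 and 557 FPKM in dark libraries (log2 change −1.87, SE 0.08, adjusted p = 8.05e-08). Malate synthase (573810, overlapping) had 44.95 and 45.7 FPKM in blue libraries, against 105 and 106 FPKM in dark libraries (log2 change −1.20).

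The models from nitrite and ammonium uptake to glutamate were all higher in blue. The chain runs from the reduction of nitrate and nitrite to ammonium, which glutamine synthetase and glutamate synthase bind to carbon. Across its transporters, reductases, glutamine synthetases and glutamate synthases 12 of 12 models rose and 0 fell, 10 of them robustly, with a median of 1.36. The NAR1 nitrite transporter (574191) had 85.7 and 88.9 FPKM in blue libraries, against 30.7 and 28.6 FPKM in dark libraries. An ammonium transporter (557399) had 124 and 130.1 FPKM in blue libraries, against 50.9 and 50.02 FPKM in dark libraries. Nitrate reductase (590448) had 63.8 and 64.3 FPKM in blue libraries, against 0.807 and 0.661 FPKM in dark libraries, the largest change of the chain (log2 change 5.23). Nitrite and sulphite reductases share a domain. The models read here for the nitrite step, 600410 and 593348, carry this domain, but their KOG line names ferredoxin-type sulphite reductase. They may thus belong to sulphate assimilation instead. Model 600410 of this kind had 285 and 258 FPKM in blue libraries, against 12.8 and 13.4 FPKM in dark libraries. Model 593348 had 671 and 665 FPKM in blue libraries, against 402 and 403 FPKM in dark libraries, so the more abundant model changed less. Glutamine synthetase (581084) had 240.2 and 231 FPKM in blue libraries, against 63.3 and 61.4 FPKM in dark libraries (log2 change 1.90, SE 0.10, adjusted p = 2.91e-07). Ferredoxin-dependent glutamate synthase (637990) had 119.7 and 114 FPKM in blue libraries, against 46.1 and 45.7 FPKM in dark libraries (log2 change 1.33).

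Glutamate dehydrogenase, which in many cells releases ammonium from glutamate, was lower in both models. Model 576853 had 89.5 and 99.4 FPKM in blue libraries, against 201 and 200.5 FPKM in dark libraries (log2 change −1.08, SE 0.08, adjusted p = 2.58e-06). Model 593231 had 30.1 and 28.2 FPKM in blue libraries, against 52.6 and 55.8 FPKM in dark libraries. Among enzymes that pass nitrogen on, carbamoyl phosphate synthase (584898) had 132 and 128 FPKM in blue libraries, against 21.3 and 20.7 FPKM in dark libraries (log2 change 2.57). Argininosuccinate synthase (583680) had 122 and 118 FPKM in blue libraries, against 32.3 and 31.7 FPKM in dark libraries. The high-affinity urea symporter (532265) had 35.9 and 35.2 FPKM in blue libraries, against 4.67 and 4.96 FPKM in dark libraries (log2 change 2.65). Urease itself (636424) had 1.07 and 0.940 FPKM in blue and 0.950 and 1.42 FPKM in dark libraries and did not pass the test, and its accessory protein UreD (590375) fell, with 8.35 and 12.5 FPKM in blue libraries, against 23.9 and 25.2 FPKM in dark libraries.

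Sulphate assimilation turns sulphate by way of adenylylated intermediates into sulphide and cysteine. Models 600410 and 593348, given above with nitrogen, are annotated as sulphite reductases of this pathway, and both rose robustly. ATP sulphurylase (590408), the entry enzyme, had 74.0 and 70.4 FPKM in blue libraries, against 4.31 and 5.08 FPKM in dark libraries (log2 change 3.69, SE 0.11, adjusted p = 1.03e-08). A phosphoadenosine phosphosulphate reductase domain protein (671473, overlapping) had 114 and 139 FPKM in blue libraries, against 13.4 and 14.5 FPKM in dark libraries. A serine acetyltransferase type protein (580099), which makes the acceptor of sulphide, had 18.8 and 25.9 FPKM in blue libraries, against 4.69 and 3.39 FPKM in dark libraries. A PAPS synthase-like protein (584320), also annotated as a bifunctional ATP sulphurylase, fell. It had 89.9 and 88.7 FPKM in blue libraries, against 172 and 171 FPKM in dark libraries (log2 change −0.93). In every blue and dark library it lay above ATP sulphurylase model 590408, so models with this annotation moved in both directions. S-adenosylmethionine synthetase (359190), which makes the cell's main methyl donor, had 91.9 and 107 FPKM in blue libraries, against 13.0 and 13.7 FPKM in dark libraries (log2 change 2.81). Adenosylhomocysteinase (598165, overlapping) had 82.9 and 98.8 FPKM in blue libraries, against 21.1 and 22.96 FPKM in dark libraries. The cobalamin-dependent type of methionine synthase (591420) had 149.7 and 153 FPKM in blue libraries, against 121 and 118 FPKM in dark libraries, a call that was not robust. The cobalamin-independent type (616145) had 15.9 and 17.4 FPKM in blue libraries, against 213 and 212 FPKM in dark libraries (log2 change −3.60). A second model of the cobalamin-independent type (554589, overlapping) had 33.8 and 36.3 FPKM in blue and 39.0 and 40.3 FPKM in dark libraries and did not pass the test, so the fall was that of 1 of 2 such models.

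Leucine, isoleucine and valine are made in the plastid and broken down in mitochondria, and the models of both routes were read apart, with no test of the difference between them. For synthesis, 3 of 6 models rose and 1 fell. Ketol-acid reductoisomerase (588063) had 300.4 and 339 FPKM in blue libraries, against 42.3 and 45.7 FPKM in dark libraries (log2 change 2.83, SE 0.10, adjusted p = 2.40e-08). Dihydroxy-acid dehydratase (534288) had 110.1 and 121 FPKM in blue libraries, against 43.3 and 44.5 FPKM in dark libraries (log2 change 1.37), while a second dehydratase (226062, overlapping) had 1.73 and 1.36 FPKM in blue and 1.72 and 2.10 FPKM in dark libraries and did not pass the test. In the leucine branch isopropylmalate dehydrogenase (626203) had 13.0 and 12.1 FPKM in blue libraries, against 7.33 and 7.21 FPKM in dark libraries, whereas a model of the isopropylmalate or homocitrate synthase type (579683) fell, with 116 and 128 FPKM in blue libraries, against 207 and 213 FPKM in dark libraries. The isopropylmalate dehydratase (609512) had 155 and 149 FPKM in blue and 131 and 134 FPKM in dark libraries and did not pass the test. For breakdown, 14 of 14 models fell, all of them robustly, with a median log2 change of −1.02.

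The falls covered the breakdown pathway from its start to its end. The E1 component of the branched-chain keto acid dehydrogenase (623081) had 51.1 and 50.8 FPKM in blue libraries, against 130.2 and 125 FPKM in dark libraries (log2 change −1.31). The non-biotin subunit of methylcrotonyl-CoA carboxylase (611034), specific to leucine, had 193 and 207 FPKM in blue libraries, against 1259 and 1216 FPKM in dark libraries (log2 change −2.62, SE 0.08, adjusted p = 1.63e-08). Isobutyryl-CoA dehydrogenase (575529), on the valine branch, had 101 and 110.2 FPKM in blue libraries, against 343 and 324 FPKM in dark libraries (log2 change −1.65). Methylmalonate semialdehyde dehydrogenase (604591, overlapping) had 42.9 and 48.6 FPKM in blue libraries, against 181 and 184 FPKM in dark libraries. Methylmalonyl-CoA mutase (622825), the last enzyme before succinyl-CoA, had 27.9 and 30.1 FPKM in blue libraries, against 84.9 and 87.3 FPKM in dark libraries (log2 change −1.54). Of 3 aminotransferases, which work in both directions, 1 rose and 2 fell. Model 609149 had 67.5 and 78.7 FPKM in blue libraries, against 30.2 and 29.4 FPKM in dark libraries. Model 551337 had 104 and 110.1 FPKM in blue libraries, against 528 and 524 FPKM in dark libraries. The enzymes with the largest change in synthesis and in breakdown also differed between the pulses, as did 4606 of all 9087 models (50.7%), ketol-acid reductoisomerase being higher in blue than in red libraries (log2 difference 0.35, adjusted p = 0.0147) and methylcrotonyl-CoA carboxylase lower (log2 difference −1.04, adjusted p = 1.17e-05).

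**Figure D4:**
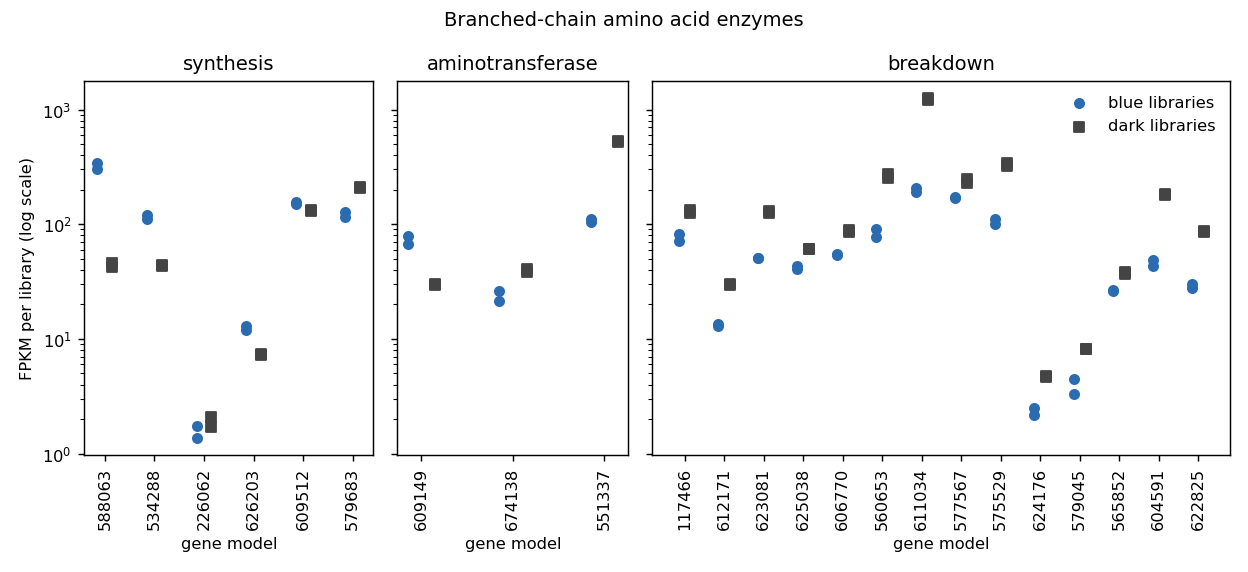
FPKM per library on a log scale for the models of branched-chain amino acid synthesis, aminotransfer and breakdown, with blue libraries as circles left of dark libraries as squares for each model. In the breakdown panel the blue libraries lie below the dark libraries in all 14 models.

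Models annotated to lysine breakdown were lower too. A saccharopine dehydrogenase domain protein (101331) had 322 and 319 FPKM in blue libraries, against 2033 and 2025 FPKM in dark libraries (log2 change −2.66, SE 0.09, adjusted p = 1.65e-08). Glutaryl-CoA dehydrogenase (593552), further down the lysine route, had 129 and 123 FPKM in blue libraries, against 366 and 354 FPKM in dark libraries (log2 change −1.51). Synthesis in the aspartate family held both directions: of 27 models listed for lysine, threonine and methionine synthesis, with the methionine cycle and some related enzymes included, 13 rose and 9 fell. The bifunctional aspartate kinase and homoserine dehydrogenase (582377) had 113 and 138 FPKM in blue libraries, against 34.1 and 33.4 FPKM in dark libraries. Diaminopimelate decarboxylase (560563), the last step to lysine, fell, with 23.7 and 22.9 FPKM in blue libraries, against 32.8 and 35.0 FPKM in dark libraries (log2 change −0.52). Homoserine kinase (573065, overlapping), on the way to threonine, also fell, with 235 and 262 FPKM in blue libraries, against 333 and 336 FPKM in dark libraries (log2 change −0.43). Dihydrodipicolinate reductase (627063) had 39.2 and 47.9 FPKM in blue and 39.1 and 41.7 FPKM in dark libraries and did not pass the test. Among other amino acid enzymes, tryptophan synthase (602302) had 45.4 and 42.6 FPKM in blue libraries, against 12.5 and 14.3 FPKM in dark libraries. Cystathionine gamma-lyase (579268), which breaks down cystathionine, had 39.8 and 42.6 FPKM in blue libraries, against 124 and 125 FPKM in dark libraries (log2 change −1.58). Of 38 models for aromatic amino acids and histidine 20 rose and 9 fell.

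Fatty acids are made in the plastid from malonyl units on acyl carrier protein. All 4 acetyl-CoA carboxylase models rose. Model 204548 had 34.2 and 34.0 FPKM in blue libraries, against 7.49 and 7.20 FPKM in dark libraries. Model 632951 had 19.4 and 19.0 FPKM in blue libraries, against 4.73 and 4.24 FPKM in dark libraries. Overlapping model 647353 had 51.0 and 53.3 FPKM in blue libraries, against 14.7 and 14.5 FPKM in dark libraries. Model 670877 had 70.6 and 69.4 FPKM in blue libraries, against 43.6 and 45.6 FPKM in dark libraries. An acyl carrier protein (605733) had 1639 and 2069 FPKM in blue libraries, against 177 and 211 FPKM in dark libraries (log2 change 3.25, SE 0.13, adjusted p = 6.18e-08). Malonyl-CoA transacylase (580919) had 273 and 310.4 FPKM in blue libraries, against 32.8 and 28.5 FPKM in dark libraries (log2 change 3.21). A ketoacyl synthase (606651, overlapping), which performs the condensing step, had 101 and 105 FPKM in blue libraries, against 7.98 and 9.07 FPKM in dark libraries. Enoyl reductase (195140, overlapping) had 187 and 198 FPKM in blue libraries, against 61.1 and 66.8 FPKM in dark libraries. The 24 models matched to the pathway, thiolases and the methylcrotonyl-CoA carboxylase subunit above included, held 0.600% and 0.659% of the summed FPKM in blue libraries, against 0.348% and 0.353% in dark libraries. An acyl carrier protein-like model 673194 also annotated as a calcium-binding protein fell, with 138 and 149 FPKM in blue libraries, against 198 and 207 FPKM in dark libraries.

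Elongases and desaturases then shape the fatty acids. Of 31 models 17 rose and 9 fell, and they held 0.994% and 1.04% of the summed FPKM in blue libraries, against 0.436% and 0.419% in dark libraries. The list is not pure: it holds 2 thiolases that fell, an SCP2 domain protein of the enoyl-CoA hydratase type that rose, and 2 hydroxylases of the sterol C5 desaturase type, of which 1 rose. A long chain fatty acid elongase (391778) had 477 and 508 FPKM in blue libraries, against 20.5 and 20.9 FPKM in dark libraries (log2 change 4.51). An ELO family elongase (622402, overlapping) had 90.7 and 80.9 FPKM in blue libraries, against 1.51 and 1.58 FPKM in dark libraries (log2 change 5.09). Others were lower: model 572755 had 8.21 and 7.95 FPKM in blue libraries, against 104 and 105 FPKM in dark libraries (log2 change −3.53) and model 556704 had 5.67 and 6.57 FPKM in blue libraries, against 24.3 and 25.3 FPKM in dark libraries (log2 change −1.86). Both directions thus occurred within the elongase family. Desaturases were divided too, since not all of them rose like those named above. Overlapping model 392284 had 487 and 462 FPKM in blue libraries, against 1144 and 1083 FPKM in dark libraries (log2 change −1.23). Overlapping model 580470, of the front-end type, had 161 and 172 FPKM in blue libraries, against 426 and 408 FPKM in dark libraries (log2 change −1.32).

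Glycerolipid assembly held rises and falls. A lysophosphatidic acid acyltransferase type model (601076, overlapping), of a family that adds an acyl chain to the glycerol backbone, had 45.1 and 57.6 FPKM in blue libraries, against 10.1 and 12.0 FPKM in dark libraries. Another (588686) had 125 and 128 FPKM in blue libraries, against 51.6 and 49.5 FPKM in dark libraries. Monogalactosyldiacylglycerol synthase (591534), which makes the main plastid membrane lipid, had 376 and 334 FPKM in blue libraries, against 176 and 171 FPKM in dark libraries (log2 change 1.02). Of 13 diacylglycerol acyltransferase models, the enzymes that complete triacylglycerol, 5 rose and 7 fell, and 5 and 3 did so robustly. The largest rise was that of overlapping model 641239, which had 42.1 and 57.9 FPKM in blue libraries, against 9.22 and 8.59 FPKM in dark libraries. An enzyme of the lecithin:cholesterol acyltransferase type (530913) had 84.1 and 83.2 FPKM in blue libraries, against 168 and 165 FPKM in dark libraries. A sphingomyelin synthase-like protein (606245) had 27.8 and 44.2 FPKM in blue libraries, against 206 and 198 FPKM in dark libraries (log2 change −2.49).

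Lipases and enzymes of fatty acid breakdown were more often lower. Of 48 lipase models 10 rose and 28 fell, 7 and 24 of them robustly, with a median of −0.48 that stayed negative under all 4 scalings. A patatin-related phospholipase (667599, overlapping) had 74.0 and 76.0 FPKM in blue libraries, against 197 and 203 FPKM in dark libraries. The list was matched by words and is not pure. It takes in a phospholipase A2-activating protein (309485), by its name not a lipase itself. That model had 35.5 and 36.7 FPKM in blue libraries, against 115 and 119 FPKM in dark libraries. A secretory phospholipase A2 (668715, overlapping) was higher, with 24.7 and 29.0 FPKM in blue libraries, against 3.54 and 3.81 FPKM in dark libraries. A mitochondrial hydroxyacyl-CoA dehydrogenase (597644, overlapping) of beta oxidation had 10.3 and 11.05 FPKM in blue libraries, against 41.4 and 40.9 FPKM in dark libraries (log2 change −1.85). Acetyl-CoA synthetase (604689) had 17.9 and 18.3 FPKM in blue libraries, against 48.1 and 48.6 FPKM in dark libraries. Over the whole beta oxidation list, which also takes in Mpv17 proteins, 28 of 76 models rose and 30 fell, near the background.

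Sterol enzymes moved in both directions along the pathway. The thiolases of the entry step fell in 3 of 4 models. Among them, model 603959 had 10.7 and 12.0 FPKM in blue libraries, against 22.0 and 21.2 FPKM in dark libraries. Cycloartenol synthase (323402, overlapping), which closes the sterol rings, had 42.6 and 47.4 FPKM in blue libraries, against 77.9 and 81.4 FPKM in dark libraries. The other 2 models of the cyclase step fell as well. Obtusifoliol 14alpha-demethylase (586786), a tailoring enzyme further on, had 132 and 141 FPKM in blue libraries, against 42.5 and 41.9 FPKM in dark libraries (log2 change 1.67, SE 0.08, adjusted p = 1.37e-07). The dehydrocholesterol reductase (641966) had 320.4 and 346 FPKM in blue libraries, against 151 and 148 FPKM in dark libraries. Sterol methyltransferases fell, the more abundant (588865) having 290.4 and 278 FPKM in blue libraries, against 483 and 452 FPKM in dark libraries.

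Pigment synthesis was higher at several entry and branch points. Chlorophyll and haem share a chain up to protoporphyrin, where magnesium chelatase leads to chlorophyll and ferrochelatase to haem. All 4 models matched to the magnesium branch rose robustly. A CobN type subunit (595990) had 442 and 423 FPKM in blue libraries, against 128 and 132 FPKM in dark libraries (log2 change 1.73, SE 0.10, adjusted p = 5.16e-07). Another such subunit (106270, overlapping) had 268 and 303 FPKM in blue libraries, against 90.04 and 94.8 FPKM in dark libraries. A further one (652264, overlapping) had 61.4 and 65.9 FPKM in blue libraries, against 38.6 and 36.9 FPKM in dark libraries. Magnesium-protoporphyrin methyltransferase (540328) had 93.8 and 93.6 FPKM in blue libraries, against 47.3 and 53.3 FPKM in dark libraries. Ferrochelatase (525239, overlapping) had 365 and 431 FPKM in blue libraries, against 112 and 106 FPKM in dark libraries (log2 change 1.85), so both branches were higher. A ferredoxin-dependent bilin reductase (593752), of the family that makes open-chain tetrapyrroles, had 152 and 180 FPKM in blue libraries, against 36.6 and 39.4 FPKM in dark libraries. Between the entry and the branch, porphobilinogen deaminase (574904) had 99.9 and 87.1 FPKM in blue libraries, against 51.7 and 53.5 FPKM in dark libraries, whereas glutamate-1-semialdehyde aminomutase (586955) had 63.1 and 89.2 FPKM in blue and 66.4 and 67.9 FPKM in dark libraries and did not pass the test.

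Of 19 carotenoid models 12 rose and 1 fell, 12 and 1 of them robustly, with a median of 0.85 that stayed positive under all 4 scalings. A squalene or phytoene synthase (594898, overlapping), the entry into carotenoids or sterols, had 124 and 121 FPKM in blue libraries, against 16.8 and 20.0 FPKM in dark libraries (log2 change 2.68). Zeta-carotene desaturase (573278) had 257 and 262 FPKM in blue libraries, against 90.7 and 92.1 FPKM in dark libraries. Lycopene beta cyclase (527076) had 132 and 155 FPKM in blue libraries, against 75.4 and 78.4 FPKM in dark libraries. The single fall was a phytoene desaturase type model 128587, with 150.4 and 151 FPKM in blue libraries, against 254 and 253 FPKM in dark libraries. Violaxanthin de-epoxidases, which convert violaxanthin to zeaxanthin under strong light in plants and related algae, changed by less. Model 590958 had 16.1 and 16.5 FPKM in blue libraries, against 9.04 and 10.42 FPKM in dark libraries. Model 598216 had 166 and 158 FPKM in blue libraries, against 106 and 106 FPKM in dark libraries. A carotenoid cleavage oxygenase (228120) had 110.3 and 117 FPKM in blue libraries, against 31.1 and 34.8 FPKM in dark libraries (log2 change 1.76).

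Photosystem proteins held large single changes, and the antenna was mixed. The Ycf48/Hcf136-like factor (571979), which assists photosystem II assembly in cyanobacteria and plants, had 161 and 164 FPKM in blue libraries, against 13.0 and 15.3 FPKM in dark libraries (log2 change 3.44, SE 0.10, adjusted p = 1.03e-08). A PsbQ-like protein (588861) had 138 and 208 FPKM in blue libraries, against 18.0 and 19.3 FPKM in dark libraries (log2 change 3.12), while PsbU (589980, overlapping), another extrinsic protein of photosystem II, had 1367 and 1565 FPKM in blue libraries, against 2580.4 and 2790.1 FPKM in dark libraries (log2 change −0.88, a call that was not robust). Of 26 light-harvesting models 8 rose and 13 fell, with a median of −0.20 with FPKM, and of 0.05 with TPM and 0.12 with quantile normalization. The most abundant rise, overlapping model 262299, had 2448 and 2732 FPKM in blue libraries, against 400.5 and 371 FPKM in dark libraries. Overlapping model 581112 had 94.7 and 131 FPKM in blue libraries, against 315 and 336 FPKM in dark libraries. Models with a 2Fe-2S ferredoxin-type domain occurred in both directions. Model 584168, described as a ferredoxin, rose, with 428 and 462 FPKM in blue libraries, against 261 and 268 FPKM in dark libraries (log2 change 0.75). Falls were larger in other models. Overlapping model 599613 had 199.7 and 201 FPKM in blue libraries, against 445 and 445 FPKM in dark libraries. Model 638187 had 148 and 147 FPKM in blue libraries, against 314 and 326 FPKM in dark libraries.

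Transporters were read by substrate. Of 28 transporters of nitrate, ammonium, urea and amino acids 16 rose and 5 fell, 14 and 2 of them robustly. Without either dark replicate the number of falls was 2. Besides those named above, an amino acid permease (551406) had 18.8 and 20.3 FPKM in blue libraries, against 5.71 and 4.98 FPKM in dark libraries. A transmembrane amino acid transporter (528291) had 30.5 and 30.4 FPKM in blue libraries, against 10.97 and 11.2 FPKM in dark libraries. The largest fall of the set was another amino acid transporter (189386, overlapping), with 4.45 and 4.05 FPKM in blue libraries, against 14.2 and 15.7 FPKM in dark libraries.

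Mitochondrial carriers exchange metabolites across organelle membranes. Of 57 models 34 rose and 12 fell, with a median of 0.47 that stayed positive under all 4 scalings. The oxoglutarate/malate translocator (584245, overlapping) had 138 and 211 FPKM in blue libraries, against 6.92 and 6.69 FPKM in dark libraries (log2 change 4.46, SE 0.17, adjusted p = 4.39e-08), its blue libraries differing by more than its dark libraries. A carrier annotated with the ADP/ATP carriers (586185, overlapping) had 1021 and 1226 FPKM in blue libraries, against 67.7 and 73.3 FPKM in dark libraries, among the 10 largest gains in FPKM of described models. In the opposite direction, an oxodicarboxylate carrier type model (594452) had 171 and 187 FPKM in blue libraries, against 1411 and 1354 FPKM in dark libraries (log2 change −2.94, SE 0.09, adjusted p = 1.29e-08). A carrier of unstated substrate (576267) had 169.7 and 181 FPKM in blue libraries, against 391.6 and 408 FPKM in dark libraries.

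ABC transporters use ATP to move varied substrates. Of 81 models 42 rose and 21 fell, and the group held 1.29% and 1.26% of the summed FPKM in blue libraries, against 0.501% and 0.494% in dark libraries. Much of that share came from (544905, overlapping), an ABC protein of the type that acts in translation, with 3568 and 3612 FPKM in blue libraries, against 118 and 111 FPKM in dark libraries. A pleiotropic drug resistance type transporter (559813) had 40.9 and 42.1 FPKM in blue libraries, against 4.43 and 4.21 FPKM in dark libraries (log2 change 3.00). A further translation-type ABC protein (592294) had 26.3 and 34.6 FPKM in blue libraries, against 1.93 and 2.02 FPKM in dark libraries. Model 671852 had 73.0 and 74.5 FPKM in blue libraries, against 277 and 276 FPKM in dark libraries (log2 change −1.89). Of 54 models of the major facilitator superfamily, carriers of sugars, anions and drugs, 24 rose and 20 fell. Model 555711 had 146 and 139 FPKM in blue libraries, against 7.47 and 7.33 FPKM in dark libraries (log2 change 4.09). Model 413378 (overlapping) had 255 and 279.8 FPKM in blue libraries, against 1220.3 and 1192 FPKM in dark libraries (log2 change −2.17). The share of rises in this family was near the background.

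Ion transporters changed in both directions. A bicarbonate transporter (576819, overlapping), of the family that brings inorganic carbon into cells, had 34.5 and 34.6 FPKM in blue libraries, against 7.02 and 6.64 FPKM in dark libraries (log2 change 2.18). Of 78 models of potassium, sodium, calcium and chloride transport 29 rose and 25 fell. The 2 largest falls of voltage-gated or calcium-activated potassium channels were these. Overlapping model 580971 had 7.47 and 6.22 FPKM in blue libraries, against 31.6 and 27.8 FPKM in dark libraries. Overlapping model 599116 had 1.39 and 1.29 FPKM in blue libraries, against 8.18 and 7.44 FPKM in dark libraries. For sulphate, overlapping model 599174 had 15.0 and 17.7 FPKM in blue libraries, against 3.32 and 3.55 FPKM in dark libraries. Overlapping model 628833 had 4.81 and 3.17 FPKM in blue libraries, against 13.0 and 15.5 FPKM in dark libraries, so the family was split evenly, with 4 of 10 models up and 4 down. A general substrate transporter matched to phosphate (630024) had 61.0 and 78.0 FPKM in blue libraries, against 10.2 and 10.6 FPKM in dark libraries. Transporters of sugars and triose phosphates were mixed too, with 13 of 30 models up and 8 down. The 2 largest rises within the triose phosphate transporter family were these. Overlapping model 574094 had 45.9 and 52.0 FPKM in blue libraries, against 10.2 and 10.9 FPKM in dark libraries. Overlapping model 231636 had 44.5 and 43.8 FPKM in blue libraries, against 16.1 and 15.4 FPKM in dark libraries. In the other direction overlapping model 580866 of the same family had 13.3 and 14.8 FPKM in blue libraries, against 19.1 and 19.9 FPKM in dark libraries, a call that was not robust, and overlapping model 574093 with the same domain had 3.19 and 2.86 FPKM in blue libraries, against 6.01 and 6.28 FPKM in dark libraries (log2 change −0.83).

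Metal transporters moved in both directions. Of 31 models 14 rose and 10 fell. A zinc/iron permease (591919, overlapping) had 143 and 151 FPKM in blue libraries, against 45.02 and 42.2 FPKM in dark libraries (log2 change 1.73). An NRAMP protein (524416), of a family that carries iron and manganese, had 76.5 and 69.9 FPKM in blue libraries, against 29.0 and 30.2 FPKM in dark libraries (log2 change 1.28). Against these, another zinc/iron permease (637164) had 7.81 and 8.91 FPKM in blue libraries, against 13.7 and 14.1 FPKM in dark libraries (log2 change −0.67), and a cation efflux protein related to mitochondrial iron transporters (577472) had 115 and 125 FPKM in blue libraries, against 252 and 253 FPKM in dark libraries (log2 change −1.07). Among copper proteins the copper chaperone (614991) had 17.1 and 12.4 FPKM in blue libraries, against 75.6 and 70.2 FPKM in dark libraries (log2 change −2.25). A Ctr copper transporter (571372) had 104 and 105 FPKM in blue libraries, against 251 and 225 FPKM in dark libraries (log2 change −1.18), whereas a second (641075) was slightly higher, with 77.5 and 83.1 FPKM in blue libraries, against 67.6 and 67.5 FPKM in dark libraries, a call that was not robust, and another (672241, overlapping) had 69.3 and 69.3 FPKM in blue and 77.7 and 77.1 FPKM in dark libraries and did not pass the test. Proton pumps also diverged. A pyrophosphate-energised pump (596653) had 56.6 and 65.3 FPKM in blue libraries, against 7.17 and 7.497 FPKM in dark libraries (log2 change 2.89) and a plasma membrane H+-ATPase (318067) had 867 and 989.5 FPKM in blue libraries, against 345 and 353 FPKM in dark libraries, while the G subunit of the vacuolar ATPase (579105) had 382 and 465 FPKM in blue libraries, against 1102 and 1146 FPKM in dark libraries and its E subunit (641907) had 353 and 354 FPKM in blue libraries, against 154 and 165 FPKM in dark libraries. A second pyrophosphate-energised pump (599264) had 20.9 and 21.5 FPKM in blue and 22.0 and 23.6 FPKM in dark libraries and did not pass the test.

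Respiratory and redox proteins moved individually. A cytochrome c-like protein (606831) had 452 and 479 FPKM in blue libraries, against 17.2 and 18.5 FPKM in dark libraries (log2 change 4.63, SE 0.08, adjusted p = 1.22e-09). Alternative oxidase (533845), which bypasses the cytochrome chain, had 38.6 and 39.0 FPKM in blue libraries, against 8.66 and 7.86 FPKM in dark libraries. A single-chain type NADH dehydrogenase (585103) had 55.4 and 66.2 FPKM in blue libraries, against 347 and 348 FPKM in dark libraries (log2 change −2.50). The MLRQ subunit of complex I (589488, overlapping) had 207 and 231 FPKM in blue libraries, against 876 and 915 FPKM in dark libraries (log2 change −2.03). Of 16 glutathione transferases, which join glutathione to reactive compounds, 9 rose and 4 fell. A pair with neighbouring identifiers rose. Model 552717 had 213 and 253 FPKM in blue libraries, against 6.77 and 7.27 FPKM in dark libraries. Model 552718 had 30.0 and 41.9 FPKM in blue libraries, against 1.86 and 1.81 FPKM in dark libraries. A glutathione peroxidase (586297, overlapping) had 133 and 169 FPKM in blue libraries, against 40.3 and 41.3 FPKM in dark libraries. Other glutathione peroxidases were mixed. Overlapping model 576366 rose robustly, overlapping model 593505 fell without being robust, and overlapping model 594006 did not pass the test. Manganese or iron superoxide dismutases differed among themselves. Model 596439 had 757 and 825 FPKM in blue libraries, against 660 and 687 FPKM in dark libraries, a call that was not robust. Model 587211 had 958 and 1108 FPKM in blue and 1174 and 1216 FPKM in dark libraries and did not pass the test. The less abundant model 605600 fell, with 105 and 128 FPKM in blue libraries, against 248 and 254 FPKM in dark libraries (log2 change −1.11). A 2-Cys peroxiredoxin (579800) was lower too, with 279 and 334 FPKM in blue libraries, against 610.5 and 617 FPKM in dark libraries.

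Heat shock proteins were abundant in darkness and most of them were lower in blue. Heat shock proteins refold damaged or new proteins, HSP70 and HSP90 with ATP and co-chaperones, HSP100 by pulling aggregates apart, and HSP20 without ATP. Over the 4 families 9 of 40 models rose and 27 fell, 7 and 24 of them robustly. The median was −1.09 with FPKM and stayed negative under all 4 scalings (−0.84 with TPM). The HSP70 with the largest fall (574559) had 142 and 189.7 FPKM in blue libraries, against 1178 and 1165 FPKM in dark libraries (log2 change −2.83). All 5 small HSP20 models fell, for example overlapping model 579259 with 272 and 302 FPKM in blue libraries, against 925 and 884 FPKM in dark libraries (log2 change −1.65). The 2 HSP20 models with the largest losses in FPKM were 631558, with 1448 and 1514 FPKM in blue libraries, against 3419 and 3252 FPKM in dark libraries, and 582137 (overlapping), with 831 and 958 FPKM in blue libraries, against 2637 and 2754 FPKM in dark libraries. The most abundant HSP90 (535301, overlapping) had 2257 and 2244 FPKM in blue libraries, against 4663 and 4409 FPKM in dark libraries, a call that was not robust. In the HSP100 family 5 of 6 models fell, for example the HSP104 type (593457, overlapping) with 472 and 522 FPKM in blue libraries, against 1905 and 1855 FPKM in dark libraries (log2 change −1.92, SE 0.12, adjusted p = 6.38e-07). The co-chaperone STI1 (597437), which links HSP70 to HSP90, had 183 and 217 FPKM in blue libraries, against 1581 and 1508 FPKM in dark libraries (log2 change −2.95, SE 0.12, adjusted p = 6.18e-08). Cdc37 (542225), which brings kinases to HSP90, had 41.2 and 41.8 FPKM in blue libraries, against 263 and 253 FPKM in dark libraries (log2 change −2.61).

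The HSP70 family itself was divided, with 6 of 13 models up and 7 down. The model annotated as BiP (587543), the HSP70 of the endoplasmic reticulum, had 80.3 and 86.5 FPKM in blue libraries, against 165 and 166 FPKM in dark libraries (log2 change −0.98). DnaK-like (539299) had 153 and 172 FPKM in blue libraries, against 412 and 401 FPKM in dark libraries (log2 change −1.32). Among the rises, model 657801 of the mortalin type had 29.3 and 28.4 FPKM in blue libraries, against 11.7 and 11.4 FPKM in dark libraries. Model 247397 of the GRP170 type had 35.4 and 37.3 FPKM in blue libraries, against 14.9 and 15.2 FPKM in dark libraries. The abundant Hsc70 (195348, overlapping) had 2237 and 2442 FPKM in blue libraries, against 3793 and 3927 FPKM in dark libraries, with a call that reversed after quantile normalization. Chaperonins form folding chambers. A mitochondrial Cpn60 (580129) had 129 and 155 FPKM in blue libraries, against 31.1 and 32.9 FPKM in dark libraries (log2 change 2.11). Another (36428) had 559 and 583 FPKM in blue libraries, against 1114 and 1078 FPKM in dark libraries. A Cpn10 (584046) had 272 and 337 FPKM in blue libraries, against 909.8 and 893 FPKM in dark libraries (log2 change −1.57). Heat shock factors, the transcription factors of these genes in other eukaryotes, fell in 4 of 5 models. Factor (595798, overlapping) had 430 and 372 FPKM in blue libraries, against 1344 and 1358 FPKM in dark libraries, factor (657947) had 137 and 125 FPKM in blue libraries, against 258 and 254 FPKM in dark libraries. The single rise (26166) had 17.9 and 19.3 FPKM in blue libraries, against 13.4 and 11.7 FPKM in dark libraries. A Myb superfamily factor (636002) also fell, with 237 and 245 FPKM in blue libraries, against 1344 and 1289 FPKM in dark libraries (log2 change −2.45).

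Proteasome subunits were mostly lower. The proteasome degrades ubiquitin-tagged proteins with a 20S core and a 26S regulatory cap. Of 26 core models 6 rose and 15 fell, and of 23 models matched to the cap, which include the ribosome assembly factor NOB1 among the rises, 3 rose and 13 fell. Core subunit (571660) had 97.4 and 118 FPKM in blue libraries, against 265 and 269 FPKM in dark libraries (log2 change −1.31, SE 0.10, adjusted p = 2.77e-06). The alpha subunit (595444) had 100.2 and 97.7 FPKM in blue libraries, against 222 and 224 FPKM in dark libraries. The PSMD9-like protein (596781), an assembly factor of the cap, had 119.5 and 140.1 FPKM in blue libraries, against 504 and 539 FPKM in dark libraries (log2 change −2.003). The median of the core was −0.32 with FPKM and −0.07 with TPM. Core subunit (597227) was among the rises, with 19.6 and 21.8 FPKM in blue libraries, against 10.41 and 10.7 FPKM in dark libraries.

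DNA replication proteins were lower in most models. MCM proteins unwind DNA at replication forks, PCNA holds the polymerases to it and replication factor C loads PCNA. Over helicase, clamp, loader, polymerase and primase 1 of 28 models rose and 18 fell, 1 and 16 of them robustly, with a median of −0.80 that stayed negative under all 4 scalings (−0.61 with TPM). PCNA (597382) had 39.1 and 33.7 FPKM in blue libraries, against 148 and 149 FPKM in dark libraries (log2 change −2.003, SE 0.10, adjusted p = 1.97e-07). Replication factor C subunit 5 (606420) had 26.6 and 28.4 FPKM in blue libraries, against 81.0 and 83.3 FPKM in dark libraries. MCM model 536045 had 9.87 and 8.51 FPKM in blue libraries, against 38.2 and 34.9 FPKM in dark libraries (log2 change −1.88). The single rise was a DNA primase with a bacterial type zinc finger (51836), with 40.9 and 43.4 FPKM in blue libraries, against 14.3 and 14.3 FPKM in dark libraries. Histones did not share this direction, with 6 of 12 models up and 2 down, and 2 and 2 robust. The most abundant histone model, an H3 (506761), fell, with 568 and 692 FPKM in blue libraries, against 1320.3 and 1407 FPKM in dark libraries (log2 change −1.12). Another H3 (516897) had 223 and 218 FPKM in blue and 214 and 215 FPKM in dark libraries and did not pass the test.

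Some cell cycle regulators rose strongly. A cyclin of the B type (198387), which drives entry into mitosis in other eukaryotes, had 212 and 218 FPKM in blue libraries, against 10.5 and 10.99 FPKM in dark libraries (log2 change 4.20, SE 0.09, adjusted p = 2.29e-09). Of the other B type cyclins, model 526535 had 74.2 and 82.7 FPKM in blue and 74.7 and 73.5 FPKM in dark libraries and did not pass the test, and model 340978 fell, with 40.6 and 40.8 FPKM in blue libraries, against 70.9 and 71.3 FPKM in dark libraries (log2 change −0.79). A PHO80-like cyclin (667623) had 306 and 285 FPKM in blue libraries, against 33.5 and 33.3 FPKM in dark libraries (log2 change 3.11). Among protein kinases 65 of 178 models rose and 67 fell, shares near the background. The kinase with the largest rise (552672) had 562 and 721 FPKM in blue libraries, against 43.1 and 47.0 FPKM in dark libraries (log2 change 3.79). A kinase annotated with the mitogen-activated family (674165) had 9.86 and 8.57 FPKM in blue libraries, against 54.7 and 53.7 FPKM in dark libraries (log2 change −2.44). In autophagy, which recycles cell contents, 7 of 16 models rose and 5 fell, or 3 without either dark replicate.

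Glucan and sugar-alcohol enzymes held large single changes. A glycoside hydrolase with a concanavalin-like glucanase domain (184193, overlapping) had 225 and 265 FPKM in blue libraries, against 5.79 and 6.95 FPKM in dark libraries (log2 change 5.06). A model with a mannitol dehydrogenase domain (528928, overlapping) had 1029.5 and 959 FPKM in blue libraries, against 103 and 97.2 FPKM in dark libraries (log2 change 3.30). A glycoside hydrolase of family 38 (637672), another mannosidase family, had 39.3 and 39.5 FPKM in blue libraries, against 131 and 129.6 FPKM in dark libraries (log2 change −1.70). Over the whole list 36 of 77 models rose and 24 fell. Cofactor enzymes included biotin synthase (605863), with 93.2 and 98.0 FPKM in blue libraries, against 26.1 and 25.7 FPKM in dark libraries. Thiamine pyrophosphokinase (514265), with 219.8 and 234 FPKM in blue libraries, against 63.7 and 62.1 FPKM in dark libraries. A folate-biopterin transporter (34886) was lower, with 7.92 and 7.10 FPKM in blue libraries, against 45.5 and 43.8 FPKM in dark libraries (log2 change −2.42).

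Several pathway steps had models that changed strongly in opposite directions. Of 86 pathway steps with at least 2 tested models, 15 held a called change of at least 2-fold in each direction. Of all models, 15.8% rose and 12.6% fell by at least 2-fold. The 15 steps held from 2 models (phosphoglycerate kinase) to 44 (organellar ribosomal proteins), so many are not single enzymes. Whether 15 exceeds the number for random sets of models was not tested. The 5 steps plotted and the pairs given here were chosen after their values were seen. For phosphoglycerate kinase, model 543791 had 81.5 and 97.9 FPKM in blue libraries, against 2.53 and 2.55 FPKM in dark libraries. Model 613606 had 222 and 247 FPKM in blue libraries, against 733 and 711 FPKM in dark libraries. For IMP dehydrogenase, which leads to GMP, model 574714 had 99.0 and 116 FPKM in blue libraries, against 51.5 and 54.6 FPKM in dark libraries. Model 673293 had 15.7 and 15.7 FPKM in blue libraries, against 65.9 and 67.2 FPKM in dark libraries. The step of UDP-sugar epimerases and sulphoquinovose synthases takes in different enzymes. In it, model 576408 had 1529.8 and 1866 FPKM in blue libraries, against 18.1 and 17.1 FPKM in dark libraries. UDP-glucose 4-epimerase (573255) had 3.95 and 4.75 FPKM in blue libraries, against 31.0 and 31.8 FPKM in dark libraries. In phosphoglycerate kinase the model that rose stayed below the one that fell, whereas for IMP dehydrogenase the model that rose was the higher one in blue and the lower one in darkness. The direct test of blue against red gave a difference for phosphoglycerate kinase (543791) (log2 difference 2.15, adjusted p = 6.46e-07). The same test gave a difference for model 576408 (log2 difference 4.75, adjusted p = 4.39e-08). It also gave a difference for branched-chain aminotransferase (551337) (log2 difference −1.34, adjusted p = 1.96e-06).

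**Figure D5:**
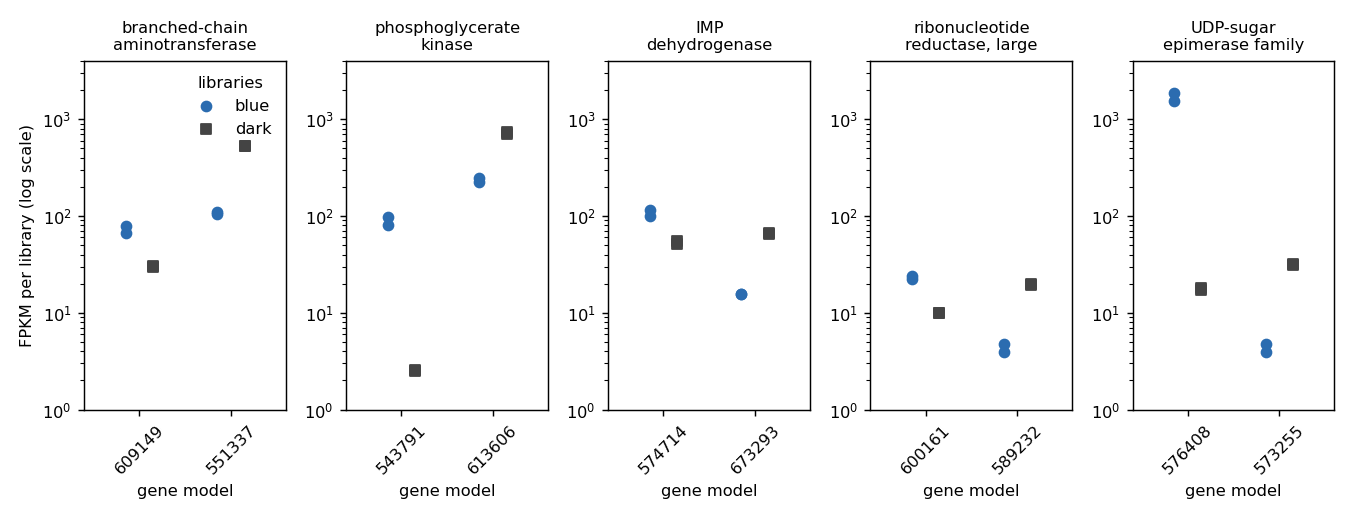
FPKM per library on a log scale for a model that rose and a model that fell in each of 5 enzyme steps, with blue libraries as circles left of dark libraries as squares. In each panel the left model has its blue libraries above its dark libraries and the right model the reverse.

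Some larger groups are given by their counts only. Of 42 models of the photosystems and photosynthetic electron transport 25 rose and 12 fell, with a median of 0.42 that stayed positive under all 4 scalings. Of 82 models matched to respiration 38 rose and 19 fell, and their median of 0.21 turned to −0.06 with median centring. Splicing factors, with 40 of 102 models up and 31 down, had a median of 0.03. Proteins of vesicle traffic fell in 71 and rose in 39 of 146 models, with a median of −0.24 with FPKM and 0.01 with TPM. Actin and myosin models fell in 24 and rose in 12 of 48 models, and their median of −0.26 stayed negative under all 4 scalings (−0.08 with TPM).

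Each group rests on 2 libraries, a single time after the pulse and a single dose. In the authors' deposited table of their own test, 5392 of 9087 models had a q-value below 0.05, and 5372 of these were also called here, all 5372 with the same sign.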

How the data were processed

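Polyadenylated RNA of 6 samples (2 blue, 2 red, 2 dark) was sequenced from stranded mRNA libraries, per the labels' protocols. The submitters' processing notes name TopHat, Cufflinks, Cuffdiff, Cuffnorm and FastQC without versions and without saying which made which column. For strand setting and annotation version the sources used here give nothing. The authors deposited 1 table of gene models with FPKM values per library, TPM values, and log2 fold changes with p-values and q-values of their own test. FPKM and TPM carry no counts, so the depth of each library is unknown, and a very low or 0 value may be a failed estimate.

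FPKM values were taken as log2(FPKM + 1) for models that averaged 1 FPKM or more across libraries, and fitted with limma 3.58.1 in R 4.3.3, with a variance trend and all 6 libraries (3 residual degrees of freedom). Blue minus dark was the main contrast and blue minus red was tested beside named models. P-values are two-sided and adjusted by the Benjamini-Hochberg method over all models tested, with a threshold of 0.05. SE is the moderated standard error of the log2 change, and fold changes of low models are understated by the pseudocount. In simulated data of 9087 models, changes of 0.5, 1, 2 and 4 log2 were given to 50 models each. Of these, 40 of 50 changes of 0.5 log2 and all 50 of each larger size were called. In total 14 of 204 calls were false. Most simulated models had no change, unlike the data, where 76.1% were called, so these rates do not carry over to the data.

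Groups of proteins came from words in product names, InterPro and KOG descriptions. The members, lists and pathway steps were chosen with earlier results of these data known. Named models were the 20 largest rises and falls among described, non-overlapping models with at least 10 FPKM in the higher group, the 10 largest gains and losses in FPKM, models from among the 5 largest changes per direction and the most abundant model of the lists described, and members of the pathway steps described. Any other model was chosen after its values were seen. Alternatives were TPM, quantile normalization, median centring, other pseudocounts and filters, a fit without red libraries or without the trend, a replicate block and leaving out each library. The fit on TPM restricted to the same models, and the rule for robust calls, were added after seeing the data. Sequences of these models were not used here.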

Additional observations from a re-analysis of the deposited data

How the results depend on the processing

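The number of called models was between 6719 and 7039 of 9087 under quantile normalization, median centring, pseudocounts of 0.1 and 5, a fit without red libraries, a fit without the variance trend and the replicate block, against 6918. With TPM it was 7026 of 9281 models as deposited and 6982 of the same 9087 models (64.8% and 64.9% of the calls higher), with no filter 7007 of 10456 and with at least 10 FPKM 5383 of 6742. Leaving out 1 library gave between 6055 (without dark replicate 1) and 6835 calls, where a lone library is assumed to vary like the others. The replicate block gave 7039 calls, 3689 higher and 3350 lower. The block and the pairs below follow the replicate numbers in the titles. By the codes in the same titles, red replicate 1 (R.2) does not share its number with blue and dark replicate 1 (B.1 and D.1). Deviations of libraries paired by title number correlated at 0.09 between blue and dark over 9087 models. The values were 0.34 between blue and red and −0.08 between dark and red. What the numbers stand for is not stated in the labels, and they are treated as names only. The 1333 models checked one by one were a selection from the 9087. They leave out most called changes under 0.28 and many larger ones. Among these 1333 models, 6 called ones changed direction. Under quantile normalization these were Hsc70 (195348) at 0.21, deoxyxylulose phosphate synthase (530268) at 0.021, a light-harvesting protein (575683) at 0.12 and a carbonic anhydrase (594422) at 0.12, each lower in blue with FPKM, and PRPP synthetase (594384) at −0.001, higher with FPKM. With median centring a Ctr copper transporter (641075) turned to −0.020. The cause was not tested. Some models given as not passing did pass under another scaling, among them an H3 histone (516897), at 0.29 with TPM and −0.23 with median centring. Of 142 counts of rises or falls in protein lists, 21 moved by over 1.5 times with TPM, 33 with median centring, 15 with at least 10 FPKM, 2 with quantile normalization and 5 without dark replicate 1. Intervals that need read depth could not be given.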
